A study of Homo sapiens with 6 samples.

Results

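The comparison described here sets day 5 neural crest cells against day 0 embryonic stem (ES) cells of the human line WA01, an established ES cell line also called H1. Its members are the genes whose FPKM (a count of sequenced fragments per length of transcript and per size of library) was at least 1 in either group, which were 14341 of the 23284 genes listed. Each group has 2 libraries, all of wildtype genotype, and another group of 2 libraries, labelled pre-neural crest, was taken on day 3. The protocols describe dissociated cells seeded on Matrigel (20000 per cm2) in medium with CHIR99021 at 3 µM, and with the ROCK inhibitor Y-27632 at 10 µM in the opening days. These culture settings are given for the day 0 libraries as well, so the labels do not say how the undifferentiated cells were grown.

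Neural crest cells arise at the border of the neural plate, pass from an epithelial to a migratory state and form peripheral neurons, glia, pigment cells and much of the face. CHIR99021 inhibits the kinase GSK3, which otherwise marks beta-catenin for destruction, so that beta-catenin accumulates and activates WNT target genes together with TCF/LEF factors. WNT, BMP and FGF signals specify the neural plate border in the embryo, where PAX3, PAX7, MSX and ZIC genes act ahead of SOX10 and FOXD3.

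The deposited values are 1 FPKM per gene and group, so no value per library, no SD and no sequencing depth can be given. A gene was called when the authors' Cuffdiff test gave an adjusted p (q) below 0.05 in the authors' deposited table. Changes are log2((day 5 FPKM + 1)/(day 0 FPKM + 1)), which understates changes of weakly expressed genes. Where "±" follows a log2 ratio, the ratio is without the added 1, and the error is the one implied by dividing that ratio by the deposited test statistic. Nothing in the labels says that the libraries of a group came from separate cultures, so the spread behind these tests may be technical. All values are from bulk RNA, in which fewer cells of a type and less RNA per cell cannot be told apart.

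Of 14214 members tested, 1777 were called higher on day 5 (12.5%) and 2148 lower (15.1%), together 27.6%. These shares of all members tested are the background for the counts in gene lists below. The 1777 became 1180 when a normal p of the deposited test statistic was used, and 948 when a change of at least 1 was also asked for. The falls were larger as well as more numerous: the median change was 1.04 among genes called higher and -1.22 among genes called lower, beside -0.0157 over all members tested. At a change of at least 4 on the log2 scale there were 41 rises and 58 falls. From an FPKM under 1 on day 0, 490 genes were called higher, 59 of them reaching at least 10. In the other direction 682 genes were called lower to an FPKM under 1, 75 of them from at least 10. The smallest q, 0.000596, was shared by 1932 called genes in the authors' deposited table, so called genes are ranked here by size of change. The genes on either side of the threshold had q of 0.04996 and 0.0502 in the authors' deposited table.

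**Figure D1:**
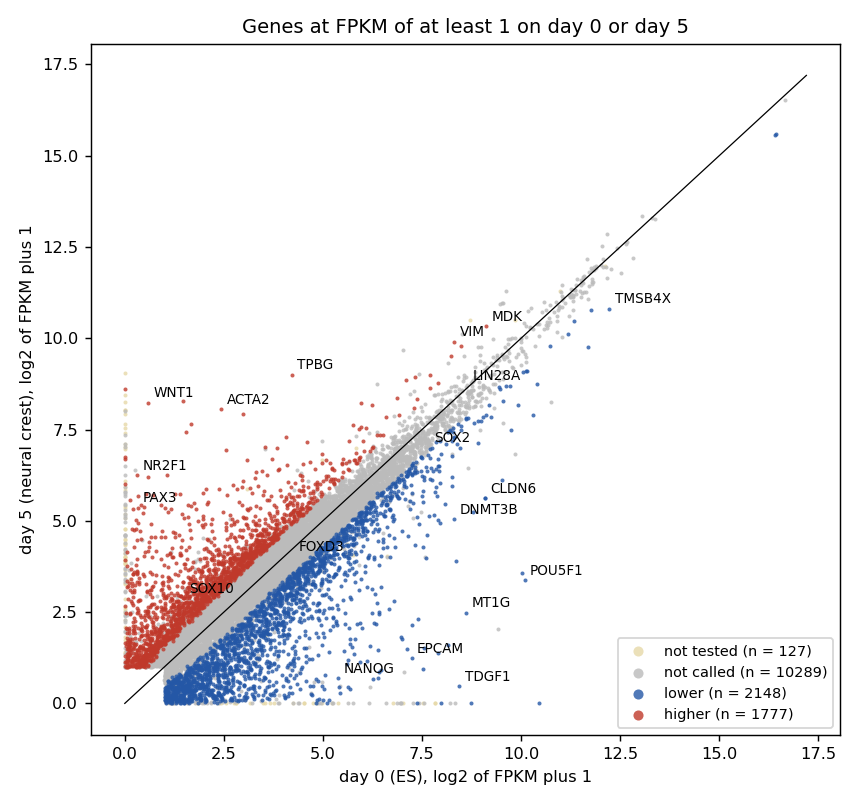
Each point is 1 of the 14341 genes, with log2 of FPKM plus 1 on day 0 (horizontal) and day 5 (vertical); red marks 1777 genes called higher, blue 2148 called lower, grey genes not called and beige the 127 not tested, and the line marks equal values. WNT1 and TPBG lie far above the line, TDGF1 and POU5F1 far below it, and LIN28A and SOX2 lie in the grey band.

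The labels were checked against markers of each cell type. Of 6 ES markers, POU5F1, NANOG, TDGF1 and DPPA4 fell, while SOX2 and LIN28A were not called. SOX2, a factor shared by pluripotent and neural cells, was at 203 FPKM on day 0, 341 on day 3 and 129 on day 5 (log2 ratio -0.65 ± 0.40, Cuffdiff q 0.091 in the authors' deposited table). The RNA-binding protein gene LIN28A was at 396, 555 and 419 FPKM (0.08 ± 0.52, q 0.931 in the authors' deposited table). Of 11 neural crest markers, 10 reached an FPKM of 1 on day 5 and 7 were called higher. TFAP2A, TFAP2B, PAX3, PAX7 and SNAI2 passed the minimum of 1 FPKM only through day 5, and NANOG and TDGF1 only through day 0. The direction of these genes was therefore set by the minimum.

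The crest markers that rose were SOX10, SOX9, TFAP2A, TFAP2B, PAX3, PAX7 and SNAI2. SOX10, the factor of migrating crest and glia, had 1.82 FPKM on day 0, 3.87 on day 3 and 6.33 on day 5 (1.80 ± 0.46, Cuffdiff q 0.0011 in the authors' deposited table). PAX3 went from 0.253 to 39.9 FPKM and PAX7 from 0.0383 to 9.31, both border genes with low values on day 0. TFAP2A rose from 0.108 to 11.8 FPKM and SNAI2, a repressor active in delaminating crest, from 0.628 to 8.24. FOXD3, a gene of both pluripotent cells and crest, was at 17.9 FPKM on day 0, 0.876 on day 3 and 15.4 on day 5 (-0.22 ± 0.34, q 0.736 in the authors' deposited table). Its day 0 and day 5 values thus lay close together with a low value between them, and ETS1 had the same order with 7.27, 1.11 and 6.14 FPKM (-0.24 ± 0.42). The receptor gene NGFR had 7.58, 18.5 and 11.7 FPKM (0.63 ± 0.35, q 0.142 in the authors' deposited table). TWIST1, a factor of crest-derived mesenchyme, stayed under 1 FPKM with 0.217 on day 0 and 0.474 on day 5.

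Markers of other neural cells were called higher as well, and their part in the crest values was not tested. The minimum of 1 FPKM was passed only through day 5 by 8 of 18 progenitor genes, 6 of 12 midbrain and hindbrain genes and 4 of 11 forebrain genes, which therefore had to be higher to enter. Of 18 tested genes of central nervous system progenitors, 10 were called higher and 1 lower, PAX6 going from 0.393 to 15.3 FPKM and SOX3 from 37.0 to 10.1. Of 12 midbrain and hindbrain genes 8 were called higher and 1 lower. The patterning gene EN1 went from 0.0341 to 12.4 FPKM. In the forebrain and eye field list 6 of 11 tested genes were called higher and 3 lower. OTX2, a gene of the anterior brain, rose from 59.2 to 182 FPKM, while HESX1 fell from 25.4 to 1.34 and FEZF1 from 21.2 to 1.00. Of 39 HOX genes, which mark the trunk and hindbrain, 38 had an FPKM under 1 in both groups. The exception, HOXB1, was listed at 0 on day 0 and at 1.04 FPKM on day 5. Few genes of other layers were measured above 1 FPKM: 5 of 20 mesoderm genes, 4 of 17 endoderm genes, 3 of 17 endothelial and blood genes, and 4 of 12 skeletal muscle genes were tested. Calls were 1 higher and 3 lower for mesoderm, 1 and 2 for endoderm, 0 and 2 for endothelial and blood, and 1 and 0 for skeletal muscle. Among them FLT1 fell from 25.6 to 0.178 FPKM and KDR, another VEGF receptor gene, from 22.2 to 2.65. The 3 called higher were ACTC1 (13.4 to 127 FPKM), CXCR4 (1.94 to 17.5) and PDGFRA (0.496 to 1.46). KDR is counted in both the mesoderm list and the endothelial and blood list. The minimum was passed only through day 0 by 1 mesoderm, 2 endoderm, 1 endothelial and blood and 1 skeletal muscle gene. It was passed only through day 5 by 1 mesoderm gene. The direction of FLT1 and PDGFRA was therefore set by the minimum. TEK had 12.2 and 15.3 FPKM on day 0 and day 5 and was not called. In the placode and nonneural ectoderm list 5 of 14 tested genes were called higher and 2 lower. Of the 14, 9 passed the minimum only through day 5 and 1 only through day 0. In the trophoblast and amnion list 1 of 4 tested genes was called higher and 2 lower. Of the 4, 1 passed only through day 5 and 1 only through day 0.

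In the pluripotency list 19 of 26 tested genes were called lower and none higher, with a median change of -2.46, and 9 of the 26 passed the minimum only through day 0. With small RNA genes left out, TDGF1 and POU5F1 had the largest falls among called genes. TDGF1, a Nodal co-receptor gene on chromosome 3 (hg19, 46616045 to 46623952), had 345 FPKM on day 0, 0.573 on day 3 and 0.389 on day 5 (-9.79 ± 0.63). POU5F1, which encodes the pluripotency factor OCT4 and is listed on a haplotype contig, had 1087, 85.3 and 9.40 FPKM (-6.85 ± 0.49). The 2 genes differed in course: TDGF1 was under 1 FPKM by day 3, when POU5F1 was at 85.3. ESRG, a long noncoding RNA gene of pluripotent cells, went from 1031 to 116 and then 10.96 FPKM, at a locus it shares with another listed gene. The POU5F1 copies POU5F1B and POU5F1P3 are called lower too, but reads of near-identical copies cannot be assigned to 1 of them with certainty.

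Other pluripotency genes left the profile at different paces. NANOG, a core factor, had 40.8 FPKM on day 0, 0.659 on day 3 and 0.615 on day 5. PRDM14, a repressor of lineage genes, was still at 12.2 FPKM on day 3 against 17.8 on day 0, and reached 0.221 on day 5. DNMT3B, the de novo DNA methyltransferase gene of ES cells, fell from 315 to 102 and 32.0 FPKM. SALL4 was at 61.4, 69.5 and 36.3 FPKM and was called lower. Among the 7 tested genes not called were SALL2 (107 and 68.4 FPKM on day 0 and day 5) and TRIM71 (56.7 and 49.6), a LIN28-associated gene.

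NANOG and 3 genes described below are shown by the 250 bases before their start, since their words for pluripotency factors, WNT effectors or epithelial repressors lie there. The bases are from RefSeq (GRCh38.p14), 5′ to 3′ on the gene's strand, with the words named beside each gene in capitals, in either orientation; other searched words that occur are left in lower case. Of the tested genes 6874 had a single listed start there. In all 17 words were searched, chosen with results known. In NANOG (chr12:7789152-7789401, plus strand) the octamer-related word TTTGCAT lies 120 bases before the start.
NANOG: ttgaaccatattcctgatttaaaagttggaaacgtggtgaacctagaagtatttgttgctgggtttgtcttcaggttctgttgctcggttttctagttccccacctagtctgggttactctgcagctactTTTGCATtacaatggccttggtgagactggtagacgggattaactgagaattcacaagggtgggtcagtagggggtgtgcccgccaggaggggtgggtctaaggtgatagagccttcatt
TTTGCAT was found in 2.53% of all these windows, in 2.72% of those of genes called higher and in 3.56% of those of genes called lower. It was in 3 of the 17 windows of the pluripotency list. The full octamer ATTTGCAT, the word for POU factors, was in 1.24%, 0.946% and 2.31%, and in 0 of the 17.

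**Figure D2:**
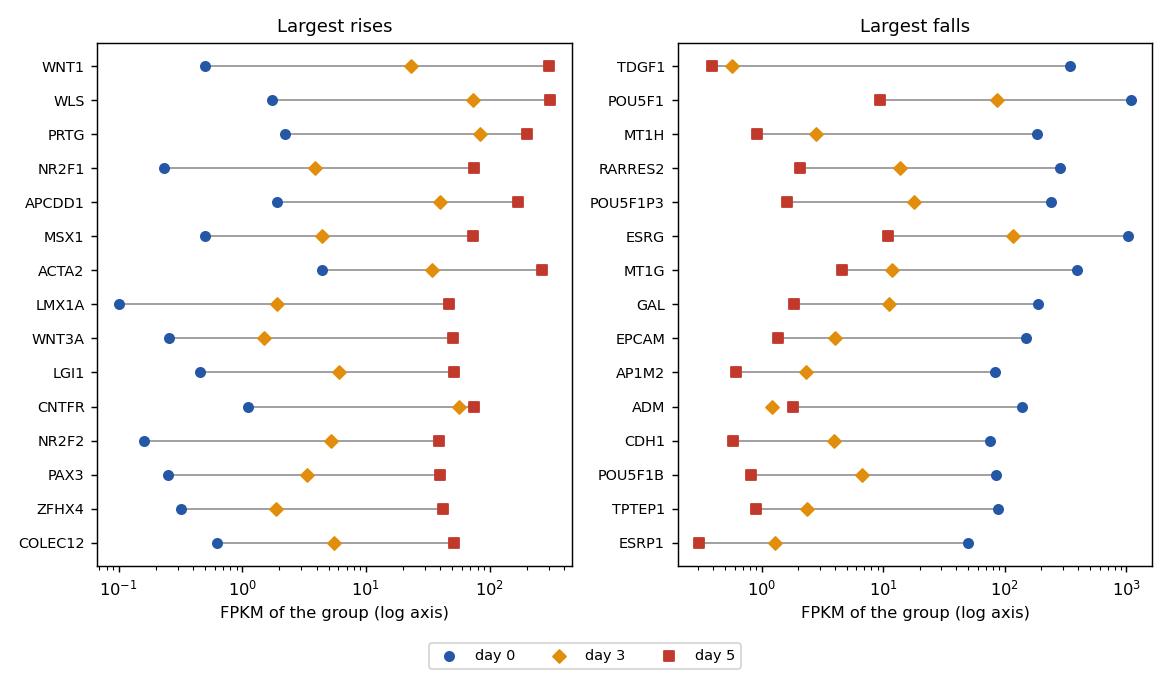
FPKM on a log axis on day 0 (blue circles), day 3 (orange diamonds) and day 5 (red squares) for the 15 largest rises (left) and falls (right) among called genes other than small RNA genes. TDGF1 was at 0.573 FPKM on day 3 and POU5F1 at 85.3, and ADM was lower on day 3 than on day 5.

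Outside the pluripotency list, the largest falls included secreted peptides and epithelial genes. RARRES2, which encodes the chemoattractant chemerin (chromosome 7, hg19, 150035407 to 150038763), fell from 286 to 13.7 and 2.05 FPKM (-7.13 ± 0.40). GAL, the gene of the neuropeptide galanin (chromosome 11, hg19, 68451983 to 68458643), fell from 186 to 11.1 and 1.84 FPKM (-6.66 ± 0.35). ADM, the gene of the vasodilator adrenomedullin, had 138, 1.21 and 1.80 FPKM. In all 3 genes most of the fall had taken place by day 3.

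Metallothioneins, the small proteins that bind zinc and copper, formed the list with the lowest median change, -3.68. Of 9 tested genes 7 were called lower and none higher, 4 of the 9 passing only through day 0. The summed FPKM of the listed metallothionein genes was 1275 on day 0 and 44.7 on day 5. MT1G fell from 391 to 11.7 and 4.58 FPKM, MT1X from 327 to 32.1 and 14.0, and MT2A from 192 to 19.7 and 14.8. These genes are near-identical in sequence, so how reads were divided among them is uncertain.

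Of 35 tested epithelial genes 29 were called lower and none higher, with a median of -3.05, and 10 of the 35 passed the minimum only through day 0. CDH1, which encodes E-cadherin (chromosome 16, hg19, 68771195 to 68869444), fell from 75.6 to 3.95 and 0.585 FPKM (-7.01 ± 0.56). EPCAM, an epithelial adhesion gene at a shared locus, fell from 149.9 to 4.01 and 1.35 FPKM. ESRP1, the splicing regulator of epithelial isoforms, fell from 50.1 to 0.307 FPKM and AP1M2, the epithelial subunit of a sorting adaptor, from 82.2 to 2.31 and 0.619. RAB17, a trafficking GTPase gene of polarised cells, fell from 31.3 to 0.0779 and 0.0567 FPKM. CLDN6, a tight junction gene of early embryonic cells, took longer, with 545, 309 and 48.4 FPKM.

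Of the epithelial genes 6 were not called. KRT19 (125 and 82.8 FPKM) and TJP1 (27.8 and 24.3), which encodes the junction scaffold ZO-1, had small changes of -0.59 and -0.19, and DSC2 and CLDN10 also had no call. CLDN7 went from 71.8 to 0.364 FPKM and CRB3 from 24.8 to 0.223, but with implied errors of 3.19 and 1.18 on the log2 scale (q 0.219 and 0.115 in the authors' deposited table). Both CLDN7 and CRB3 share a listed locus with another gene. Of the 3519 tested members at shared loci, 15.8% were called and 21.5% had an implied error above 1, beside 31.5% and 0.860% of the 10695 members with a locus of their own.

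Repressors of the SNAI and ZEB families read the word CAGGTG, and it appears 3 times in the windows of AP1M2 (chr19:10587313-10587562, minus strand, 57, 27 and 15 bases before the start) and RAB17 (chr2:237590735-237590984, minus strand, 78, 63 and 29 bases before it).
AP1M2: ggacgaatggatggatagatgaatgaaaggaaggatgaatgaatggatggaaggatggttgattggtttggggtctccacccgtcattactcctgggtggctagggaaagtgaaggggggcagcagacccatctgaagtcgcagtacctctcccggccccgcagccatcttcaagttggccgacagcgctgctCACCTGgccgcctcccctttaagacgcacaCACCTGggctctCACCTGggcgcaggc
RAB17: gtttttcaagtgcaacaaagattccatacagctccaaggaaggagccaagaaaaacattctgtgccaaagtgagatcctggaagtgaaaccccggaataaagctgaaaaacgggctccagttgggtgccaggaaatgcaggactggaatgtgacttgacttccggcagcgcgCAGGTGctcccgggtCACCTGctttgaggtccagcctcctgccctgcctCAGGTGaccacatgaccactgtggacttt
In the windows of tested genes with a single start, CAGGTG was found in 15.7% of all 6874, in 11.2% of the 846 called higher and in 22.2% of the 1040 called lower. Among epithelial genes 7 of 12 windows held it. The related word CAGCTG was found in 12.9% of all windows, 14.8% of those called higher and 13.7% of those called lower. The windows of genes called lower had 67.1% G and C, beside 65.0% for genes called higher. These are matches of letters and not binding sites.

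Transcription factors of the epithelial to mesenchymal transition had calls in both directions. ZEB2, a repressor of CDH1, rose from 0.434 to 25.0 and 16.6 FPKM and ZEB1 from 0.134 to 5.72. SNAI1, a repressor related to SNAI2, was called lower, from 6.82 to 3.40 FPKM. The epithelial-state factors GRHL2 (6.41 to 0.0610 FPKM), OVOL2 (5.69 to 0.836) and OVOL1 (1.56 to 0.0860) fell. With PRRX2, which rose, the list had 4 of 10 tested genes higher and 4 lower. Of the 10, 4 passed the minimum of 1 FPKM only through day 5 and 3 only through day 0. The direction of these genes was therefore set by the minimum.

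Among the 11 tested cadherins 7 were called higher and 2 lower, with 2 passing the minimum only through day 5 and 1 only through day 0. CDH2, which encodes N-cadherin, rose from 15.8 to 101 and 157 FPKM (3.31 ± 0.41). CDH6, a cadherin of the premigratory crest, rose from 0.884 to 3.32 and 41.9 FPKM, and CDH11, found on migrating crest, from 1.70 to 21.0. The 2 cadherins that fell were CDH1 and CDH3, the P-cadherin gene, which went from 47.4 to 1.10 FPKM.

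**Figure D3:**
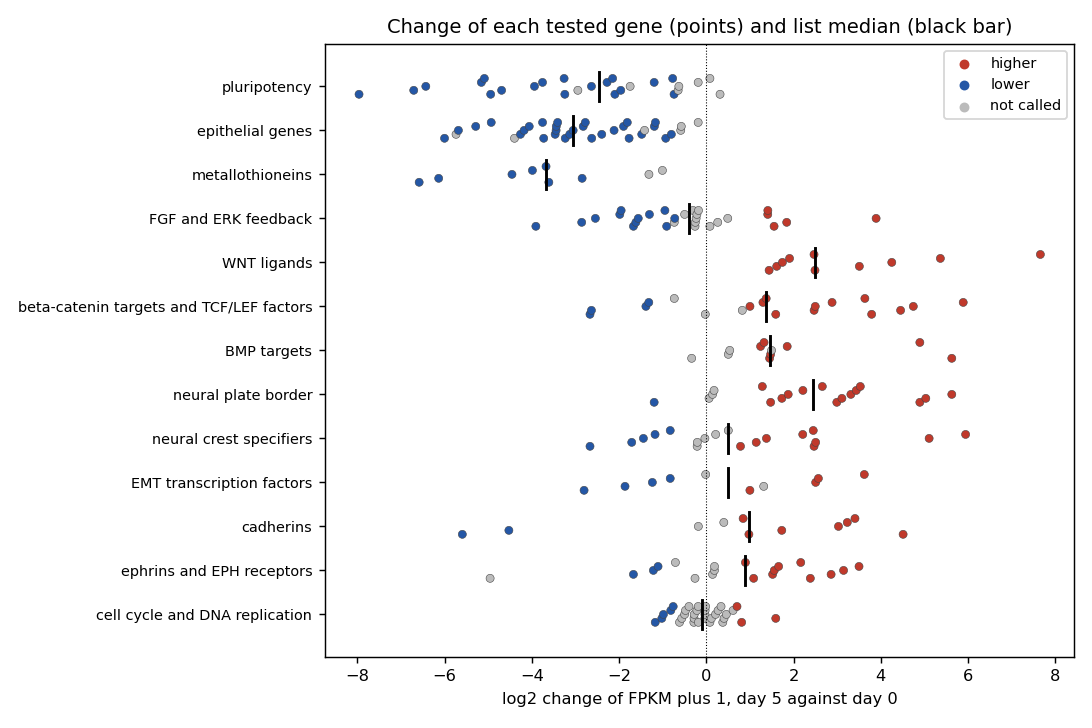
Each point is a tested gene of the list named at left, placed by its log2 change of FPKM plus 1 from day 0 to day 5 and coloured by its call; black bars mark list medians. Epithelial genes and metallothioneins have no gene called higher, WNT ligands none called lower, and the cadherins hold both directions, with CDH1 and CDH3 at left.

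All 10 tested WNT ligand genes were called higher (median 2.48), but 9 of the 10 passed the minimum of 1 FPKM only through day 5. The other 9 ligands of the list of 19 were under 1 FPKM in both groups, and with no minimum 11 of 14 tested ligands were called higher and none lower. WNT1, the ligand of the dorsal midbrain and neural tube (chromosome 12, hg19, 49372236 to 49376396), went from 0.496 to 23.1 and 301 FPKM (9.24 ± 0.42). WNT3A went from 0.254 to 1.5 and 50.6 FPKM and WNT10B from 0.590 to 6.37 and 29.2, both of them ligands that act through beta-catenin. WNT4 peaked on day 3, with 0.862, 13.2 and 5.98 FPKM.

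WNT receptors and secretion genes moved in both directions, with 10 of 24 tested called higher and 5 lower. Of the 24, 6 passed the minimum only through day 5. WLS, the carrier that takes WNT proteins to the cell surface, rose from 1.75 to 74.0 and 310.3 FPKM, at a shared locus and with an implied error of 0.98. The receptor FZD10 rose from 0.178 to 6.61 and 18.5 FPKM and the ligands RSPO2 and RSPO3, which amplify WNT signals, from 0.247 to 14.5 and from 0.159 to 10.7. FZD5, a receptor of ES cells, fell from 18.6 to 1.54 FPKM and FZD7 from 105 to 49.8, after 171 on day 3. Of the antagonists 3 of 11 tested rose and 3 fell: DKK1 went from 0.207 to 31.3 FPKM, while SFRP1 fell from 243 to 88.9. SFRP2 was at 211, 172 and 224 FPKM and was not called.

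Targets of beta-catenin were mostly higher, with 12 of 19 tested called higher and 4 lower (median 1.37), 7 of the 19 passing only through day 5. AXIN2, a feedback inhibitor and general target, rose stepwise from 8.76 to 26.2 and 70.9 FPKM (3.02 ± 0.37). SP5, a target that encodes a repressor (chromosome 2, hg19, 171571857 to 171574498), went from 1.42 to 118 and then 52.0 FPKM, so its highest value was on day 3. LEF1, a DNA-binding partner of beta-catenin, rose from 0.914 to 25.4 FPKM. The other partners TCF7L1, the main TCF of ES cells, and TCF7L2 fell from 84.9 to 12.8 and from 23.6 to 8.85 FPKM. MYC, often listed as a WNT target and as a crest gene, fell from 39.9 to 8.34 and 5.43 FPKM, and BAMBI fell from 12.2 to 1.33 and 4.07.

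The window of SP5 (chr2:170715087-170715336, plus strand) holds the TCF/LEF words ATCAAAG or TTCAAAG at 148, 109 and 84 bases before the start, one of them as CTTTGAT on this strand.
SP5: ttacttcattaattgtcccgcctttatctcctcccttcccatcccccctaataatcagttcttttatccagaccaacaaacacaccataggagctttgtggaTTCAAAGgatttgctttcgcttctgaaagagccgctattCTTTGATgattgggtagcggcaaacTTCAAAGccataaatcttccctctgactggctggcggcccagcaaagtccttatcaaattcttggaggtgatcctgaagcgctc
ATCAAAG was found in 1.12% of all windows, in 1.18% of those of genes called higher and in 0.865% of those called lower, and these shares are close to each other. CTTTGAA, the reverse complement of TTCAAAG, was in 2.04%, 3.07% and 1.63%.

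Of 12 tested BMP ligand and receptor genes 6 were called higher and none lower, with 4 of the 12 above 1 FPKM only on day 5. BMP2 went from 2.16 to 3.27 and 41.4 FPKM, BMP4 from 2.90 to 1.69 and 27.5, and BMP7 from 3.09 to 7.11 and 29.3, so that most of the change fell after day 3. Of 12 tested genes in the list of BMP antagonists, 7 were called higher and 1 lower, 4 of the 12 passing only through day 5. NOG rose from 0.167 to 25.7 FPKM and GREM1 from 0.294 to 25.4, while FST peaked on day 3 with 11.0, 183 and 75.0. Of 11 tested targets, 5 of them above 1 FPKM only on day 5, 7 were called higher and none lower, among them MSX1 (0.503 to 73.2 FPKM, chromosome 4, hg19, 4861392 to 4865660) and MSX2 (0.405 to 40.8). ID2 rose from 67.6 to 186 FPKM, but ID1 (119, 11.3 and 174) and ID3 (179.5, 159.5 and 255) were not called. ID1 was thus low on day 3, and its day 5 value was above that of day 0 without a call (0.54 ± 0.43, Cuffdiff q 0.156 in the authors' deposited table).

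Genes of FGF and ERK feedback were more often lower, with 12 of 28 tested called lower (42.9%) and 5 higher (17.9%), median -0.40. Of all members tested 15.1% were lower and 12.5% higher. The ERK-induced genes ETV4 (50.3 to 2.42 FPKM), SPRY4 (23.9 to 2.44) and DUSP6 (61.2 to 3.52 and 9.67) fell. FGF2, the ligand used to maintain ES cells, fell from 30.6 to 8.90 FPKM. The receptors differed: FGFR1 (112 to 59.3 FPKM) and FGFR4 (34.0 to 10.4) fell, while FGFR2 (35.1 to 94.7) and FGFR3 (8.74 to 33.9) rose. In the Nodal and activin list 5 of 13 tested genes were called lower and 1 higher, and 6 of the 13 passed the minimum only through day 0. FOXH1, the DNA-binding partner of SMAD2, fell from 60.2 to 17.4 and 1.21 FPKM, at a shared locus, and the rise was SMAD3, from 2.52 to 6.52.

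Hedgehog co-receptors were called higher, while the targets GLI1 and PTCH1 differed in their calls. Of 10 tested genes 6 were called higher, including the co-receptor genes BOC (1.72 to 35.5 FPKM), GAS1 (3.25 to 42.6) and CDON (3.50 to 29.3), and GLI3, which encodes the pathway's main repressor (4.95 to 51.0). GLI1, a target of the pathway, was the only gene called lower, from 7.22 to 0.587 FPKM. It passed the minimum of 1 FPKM only through day 0, so its direction was set by the minimum. PTCH1, a receptor and another target, had 6.42 and 6.91 FPKM on day 0 and day 5 (0.11 ± 0.42, Cuffdiff q 0.878 in the authors' deposited table). In the Notch list 7 of 20 tested genes were higher (35%) and 5 lower (25%), beside 12.5% and 15.1% of all members tested. The ligand gene JAG1 rose from 8.96 to 41.2 FPKM, and HES3, a repressor of the hairy family, had 71.3, 235 and 1.95. For retinoic acid, the binding proteins CRABP1 (354 to 877 FPKM) and CRABP2 (160.2 to 494) rose, and the degrading enzyme gene CYP26A1 had 20.8, 59.9 and 3.65. In that list 6 of 15 tested genes were higher (40%) and 3 lower (20%), beside the same 12.5% and 15.1%.

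Among neural plate border genes 14 of 18 tested were called higher and 1 lower (median 2.43), 9 of them measured above 1 FPKM only on day 5. Besides PAX3, PAX7, MSX1 and MSX2, ZIC1 rose from 0.200 to 8.53 FPKM. IRX1 had its highest value on day 3, with 6.95, 259 and 67.5. In the crest specifier list 9 of 19 tested genes were higher and 5 lower. Of these 19, 6 passed the minimum only through day 5 and 1 only through day 0. NR2F1 and NR2F2, nuclear receptors that act at crest enhancers, rose from 0.234 to 74.8 and from 0.161 to 39.0 FPKM. The 5 lower genes were MYC, MYCN (65.5 to 23.5), MYB, SNAI1 and ERBB3, which encodes the neuregulin receptor of the glial lineage (12.8 to 3.22).

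Receptors that guide or sustain migrating crest were split as well, 9 of 18 tested being higher and 5 lower. Of these 18, 5 passed the minimum only through day 5 and 2 only through day 0. CXCR4, the chemokine receptor gene, rose from 1.94 to 17.5 FPKM, EDNRA, an endothelin receptor of cranial crest, from 0.918 to 10.3, and NRP2, a semaphorin receptor, from 12.0 to 50.3. EDNRB, the endothelin receptor of melanocyte and enteric precursors, fell from 3.55 to 0.236 FPKM, RET, the GDNF receptor of enteric precursors, from 2.83 to 0.469, and KIT, the receptor of melanoblasts, from 8.26 to 4.65. ERBB2 fell from 109 to 31.0 FPKM. Ephrins and their receptors, which set boundaries between streams of cells, had 10 of 19 tested genes higher (52.6%) and 3 lower (15.8%). Of all members tested 12.5% were higher and 15.1% lower, so the lower share was near that of all members. Of the 19, 1 passed the minimum only through day 5 and 3 only through day 0. EPHA7 rose from 2.03 to 33.3 FPKM and EFNB1 from 2.96 to 59.4 and 34.0. Of 8 tested sensory and autonomic neuron genes 4 were higher and 1 lower, with POU4F1, a sensory neuron factor gene (chromosome 13, hg19, 79173230 to 79177695), going from 0.139 to 26.3 FPKM. Of the 8, 4 passed the minimum only through day 5 and 1 only through day 0. Another 22 of that list were under 1 FPKM in both groups.

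The cytoskeleton and the matrix changed in part. Of 22 tested actin and contractile genes 10 were higher and 1 lower. ACTA2, the smooth muscle actin gene at a shared locus, rose from 4.41 to 34.1 and 266 FPKM, and VIM, the intermediate filament gene of mesenchymal cells, from 317 to 501 and 960.1. VIM, MDK (551 to 1284 FPKM), which encodes the growth factor midkine, CRABP1 and TPBG, a WNT-modulating surface protein gene (17.6 to 509.98, chromosome 6, hg19, 83072923 to 83077133), were the largest gains in FPKM. At the other end TMSB4X, an actin-binding peptide gene, fell from 4790.2 to 1791 FPKM and PFN1, the profilin gene, from 2314 to 1119. Collagens had 9 of 26 tested genes higher (34.6%) and 6 lower (23.1%), beside 12.5% and 15.1% of all members tested. COL2A1, the cartilage collagen, rose from 4.89 to 123 FPKM, and COL6A1 and COL6A2 fell from 54.7 to 16.6 and from 53.9 to 10.6. Of 14 tested integrins 2 were higher (14.3%) and 5 lower (35.7%), beside 12.5% and 15.1% of all members tested. The minimum was passed only through day 5 by 4 of the 14 and only through day 0 by 4. ITGA5, the fibronectin receptor chain, rose from 4.92 to 27.3 FPKM, while ITGB5 fell from 56.4 to 14.0 and ITGA6, a laminin receptor chain, from 44.3 to 16.0.

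Chromatin, growth and metabolic genes had calls in both directions. Of 27 tested DNA methylation and Polycomb genes 6 were higher (22.2%) and 4 lower (14.8%), beside 12.5% and 15.1% of all members tested. Within 1 complex, PHC1 fell from 184 to 18.5 FPKM while its paralogue PHC2 rose from 9.28 to 60.8 and BMI1 from 2.72 to 14.6, all at shared loci. In the list of 32 tested cell cycle genes 3 were higher (9.38%) and 5 lower (15.6%), near the shares of all members tested. CCND1 went from 32.6 to 105 and 100.1 FPKM and MCM5 from 95.9 to 42.0. The median change of that list was -0.11, and it was 0.02 after rescaling without the 3 genes of largest FPKM. PMAIP1, a p53 target of apoptosis also known as NOXA, fell from 82.6 to 2.28 and 1.73 FPKM, and GADD45A rose from 18.7 to 65.1. Of 23 tested hypoxia and glycolysis genes 7 were lower (30.4%) and 1 higher (4.35%), with HK1 falling from 89.8 to 21.5 FPKM. Of 17 tested serine and one-carbon enzymes 7 were lower and 1 higher, PHGDH, the entry enzyme of serine synthesis, going from 349.7 to 126 FPKM. Immediate early and stress genes had 9 of 22 lower and none higher. FOS was at 44.1, 0.748 and 6.17 FPKM. Among 15 housekeeping genes 1 was called, HPRT1, from 41.9 to 24.4 FPKM (q 0.0359 in the authors' deposited table). The median change of the housekeeping list was -0.27, and -0.14 after the same rescaling. The imprinted and IGF list had 8 of 19 higher and 5 lower, with IGFBP5 rising from 1.65 to 52.4 FPKM and DLK1 standing at 6.79, 359 and 59.6.

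**Figure D4:**
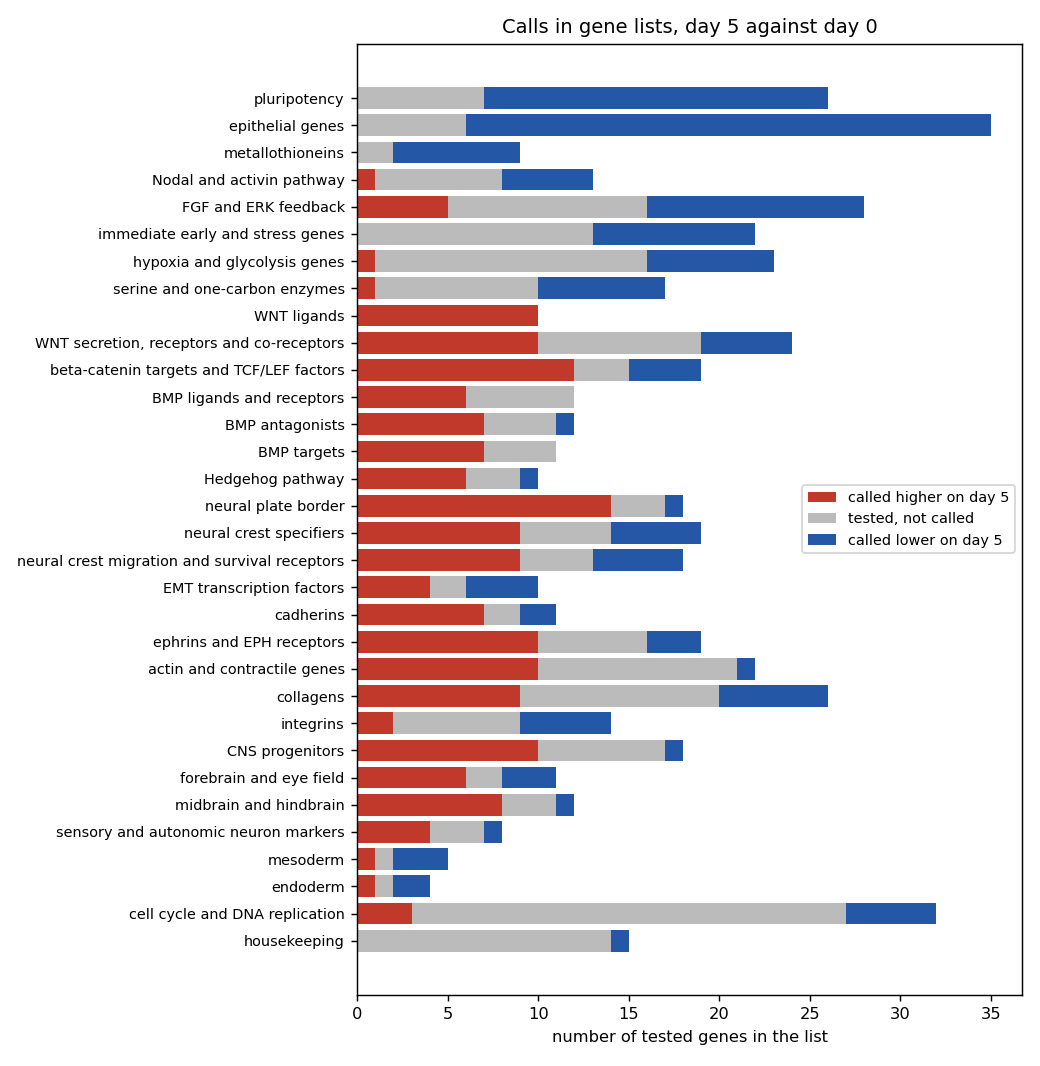
Bars show the number of tested genes in each list that were called higher (red), not called (grey) or called lower (blue) on day 5 against day 0. Of 35 epithelial genes 29 were called lower, of 18 neural plate border genes 14 were called higher, and 14 of 15 housekeeping genes were not called.

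Some genes had large changes with no call. MAB21L2, an eye and midbrain gene, was at 0.202, 8.67 and 83.0 FPKM with an implied error of 5.52 (q 0.484 in the authors' deposited table). RFX4, a neural tube factor, went from 0.108 to 13.4 FPKM (q 0.239 in the authors' deposited table). H3F3A, a histone H3.3 gene with near-identical copies, was listed at 688, 2.86 and 3.09 FPKM with an implied error of 8.50 (q 0.68 in the authors' deposited table). MAB21L2, RFX4 and H3F3A share their listed locus with another gene. Genes of small RNAs made up 388 members, of which 279 were tested and 15 called, 6 higher and 9 lower. Of all members tested 27.6% were called. The small RNA genes hold several of the most extreme values in either direction, and SNORD73A and SNORD49A are listed at 0 on day 5. Libraries were made from poly-adenylated RNA, which most small RNAs are not.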

How the data were processed

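Poly-adenylated RNA was sequenced in 6 libraries, 2 in each of 3 groups; 4 enter the comparison. The submitters' processing notes list the aligner TopHat2 (2.0.10; TopHat is also named), Cuffdiff 2.1.1 and build hg19. The annotation is not given in the sources used here. Per the file headers, the authors' table gives 1 FPKM value per gene and group. The deposited test statistic is used as a score, beside the deposited p-value and q-value, which the authors adjusted over all 3 comparisons of the table. Genes were identified by the table's identifier column, and those under 1 FPKM in both groups were left out. A gene under 1 FPKM in only 1 group passed through the other, so the direction of its change was set by the minimum. Depth per library is unknown.

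Rows with status OK count as tested, and those with a deposited q below 0.05 as called. The error implied by the test statistic sometimes disagrees with the deposited q and is a description. List medians use a pseudocount of 1 FPKM. The 49 lists hold 1030 symbols, 8 of them absent. The members and lists were chosen with earlier results of these data known. Named genes are the 15 largest rises and falls among called genes at 5 FPKM or more, up to 4 genes per list with those needed to make a small count clear, the largest gains and losses in FPKM, and large changes without a call. Other genes named were chosen after their values were seen, and some listed genes are not reported here. Promoters were matched by symbol to the RefSeq table (GRCh38.p14), which has 22114 symbols with 1 entry, and 250 bases upstream were searched. Positions are as in the authors' table, with starts counted from 1. The scripts were tested on simulated data and ran on pandas and scipy.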

Additional observations from a re-analysis of the deposited data

How the results depend on the processing

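Counting calls by a normal p of the deposited test statistic gave 1180 genes higher in place of 1777, and asking also for a log2 change of at least 1 gave 948. The cause was not tested for the normal p; the added size limit removes genes by construction. Genes called lower stayed within 1.5 times of 2148 under all 8 alternatives, 2 of them (without small RNA genes, without genes at shared loci) chosen after seeing the data. At q below 0.01 the calls fell to 1 lower in the endoderm and 1 in the trophoblast and amnion lists, 0 higher in the LIN28 and let-7 list, 1 higher and 3 lower in the cell cycle list, 4 lower in hypoxia and glycolysis, 0 higher in serine and one-carbon enzymes, 3 lower in the imprinted and IGF list and 0 lower in housekeeping; the stricter threshold removes calls by construction. The other 89 of 98 list counts stayed within 1.5 times. Of 234 named genes, 19 lost and 6 gained their call under the normal p, among them MIF, COX7C and HPRT1 (lost) and CRB3, EPHA1 and LIM2 (gained), and none changed direction. A pseudocount of 0.1 and centring changed none of their directions. Of 49 list medians 12 moved with the pseudocount and 13 with no FPKM minimum, for example WNT ligands from 2.48 to 3.62 and 1.82. Rescaling without MIR4461, MIR1244-3 and MIR1244-1, which hold 27.0% of the FPKM sum on day 0 and 21.9% on day 5, raises every log2 ratio by 0.13. No paired analysis was possible because the table has no value per replicate, and for the same reason leaving out each replicate was not run.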

Other observations

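By class of gene, 28 of 187 tested long noncoding RNA genes were called higher and 8 lower (4.28%), beside 13.1% and 16.1% of 11665 protein-coding genes. The share called higher changed with level. Among 3975 genes with a mean of 1 to 5 FPKM, 16.3% were called higher and 17.6% lower, while among 898 genes above 100 FPKM 3.67% were higher and 14.1% lower. By chromosome, 80 of 1090 tested genes on chromosome 19 were called higher (7.34%) and 194 lower (17.8%), and 94 of 499 on chromosome 4 were called higher (18.8%) and 77 lower. These are counts with no test.

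Leaving aside the 3 small RNA genes with the largest FPKM, genes called higher held 1.82% of the FPKM sum on day 0 and 5.72% on day 5. Genes called lower held 13.8% and 5.55%, and genes not called 82.9% and 86.5%. Among the genes that lost the most FPKM were GSTP1, a glutathione transferase gene (1348 to 429 FPKM), and APOE, the lipid carrier gene (966 to 285).

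Several genes had their highest value on day 3 and values on day 0 and day 5 that lay closer together. FOXB1, a neural factor, was at 3.77, 73.6 and 4.08 FPKM on the 3 days and VGLL3, a TEAD cofactor, at 1.95, 122 and 1.03. VGLL3 was called lower on day 5 against day 0 (Cuffdiff q 0.0359 in the authors' deposited table) by a change far smaller than its day 3 excursion. These genes were chosen after their values were seen.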
